A study of Mus musculus with 8 samples.

Results

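A set of 10 genes of the cytosolic heat shock machinery were followed in mouse heart mRNA: Hsph1, St13, Hsp90aa1, Hsp90ab1, Hspa8, Hspa4, Hspa1b, Dnaja1, Dnajb1 and Bag3. All 10 were found by NCBI Gene number among the 18215 genes in the deposited tables, and all 10 passed the filter on low counts that left 12670 tested genes. The set was chosen by expected counts scaled per library: Hsph1, St13 and Hsp90ab1 had been seen higher with the transgene, and the other 7 are their partners in the same machinery. The difference between the groups therefore chose the set, so the values of the members in it are a description, and no p-value is given for any of them. The hearts came from mice with a Carns transgene (TG, 4 libraries) or from wild-type mice (WT, 4 libraries), and poly(A) RNA was sequenced. Strain, age, the promoter of the transgene and the number of founder lines are not given in the sources used here. Whether each library is a different animal is not said, so a p-value covers only the spread among libraries, which may be technical.

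Cytosolic chaperones bind unfolded stretches of other proteins and release them in cycles of ATP use. J-domain proteins bring clients to HSP70 and start its ATP hydrolysis, exchange factors such as the HSP110 proteins and the BAG proteins reopen it, and some clients then pass to HSP90. Heat shock factor 1 (HSF1) turns on many of these genes when unfolded proteins build up, by binding heat shock elements, repeats of the unit GAA in alternating orientation. Heart muscle, with its constant mechanical load, keeps several of them at a high resting level. Hsph1 encodes an inducible HSP110 protein and Hspa4 a constitutive relative. Hspa8 is the constitutive and Hspa1b an inducible HSP70. Hsp90ab1 and Hsp90aa1 are the constitutive and the more inducible cytosolic HSP90. St13 (HIP) is a co-chaperone that holds HSP70 in its client-bound state, Dnaja1 and Dnajb1 are J-domain proteins, and Bag3 links HSP70 to small heat shock proteins and to the removal of damaged filament proteins in muscle.

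Heat shock elements were looked for in the start regions of the members, and the windows of the gene that names the set and of the inducible HSP70 are shown. RefSeq windows from 250 bases before to 50 bases after a start site (build GRCm38.p6, which is not the build named for these libraries) were matched for 6 members and searched on both strands. The forms with 3 units were GAA, TTC and GAA, or TTC, GAA and TTC, with NN (any 2 bases) between neighbours, and these are each other's reverse complement. The forms with 2 units were GAA and TTC, or TTC and GAA, again with NN between, and they lie inside the longer forms. Capitals mark the match with 3 units in Hsph1 and the match with 2 units in Hspa1b.
Hsph1, chr5:149636287-149636586, minus strand: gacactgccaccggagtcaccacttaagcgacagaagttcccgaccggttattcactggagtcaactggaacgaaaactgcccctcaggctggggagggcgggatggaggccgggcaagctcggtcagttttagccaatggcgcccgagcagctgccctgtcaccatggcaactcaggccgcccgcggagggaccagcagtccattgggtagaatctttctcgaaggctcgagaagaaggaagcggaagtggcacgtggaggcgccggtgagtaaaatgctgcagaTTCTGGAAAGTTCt
Hspa1b, chr17:34959189-34959488, minus strand: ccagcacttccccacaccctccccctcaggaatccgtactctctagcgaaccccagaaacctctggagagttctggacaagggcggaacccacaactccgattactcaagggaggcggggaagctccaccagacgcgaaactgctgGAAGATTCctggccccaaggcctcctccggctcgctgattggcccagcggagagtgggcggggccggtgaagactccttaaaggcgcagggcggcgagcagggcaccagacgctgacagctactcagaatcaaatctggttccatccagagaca
The Hsph1 match TTCTGGAAAGTTC began 37 bases into the transcript from this start site and 16 bases into it from a second, overlapping start site. Hsph1 also held a form with 2 units before the start, TTCTCGAA at base -33 from this start site, left in lower case. Counted by gene, a form with 3 units was found in 179 of 27025 genes with such windows, or 0.662%, and Hsph1 was the 1 member of the 6 that held one. Forms with 2 units were found in 17% of those genes and in 4 of the 6 members, and in 15.1% of the 32851 single windows. Besides Hsph1 and Hspa1b these were Dnaja1, with GAAAATTC 124 bases before its first start site, and Bag3, with GAAGTTTC at base 43 after its start. The Hspa4 window and both Dnajb1 windows held none of these forms. Only exact units were searched, so no absence of a heat shock element is read from a missing or short match. The Bag3 match ends at the last base of its window, and a form with 3 units running past it could not be seen. Windows for St13, Hsp90aa1, Hsp90ab1 and Hspa8 were not analysed here.

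The libraries held 6261193 to 7897629 expected counts, estimated read or fragment numbers per gene, and 15877 to 16109 listed genes each. They fell into 4 with more counts (TG replicates 1 and 3, WT replicates 1 and 2, at least 7394143) and 4 with fewer (TG replicates 2 and 4, WT replicates 3 and 4, at most 6557621). The classes divide each group evenly. What else sets these libraries apart is not given in the labels, and the total count serves here only as the name of the division. Between the classes 32.2% of all tested genes differed, and whether depth itself or something that goes with it underlies this was not tested. Carns1, which encodes carnosine synthase, matched the labels in all 8 libraries, at 20812 ± 2454 CPM (counts scaled to one common library total) with the transgene against 62.6 ± 12.5 CPM without it (mean ± SD over 4 libraries). Of the marker lists of other cell types, that of macrophages and dendritic cells had lower values in TG for 10 of 10 genes, with a median log2 fold change of -0.30. None of them passed over all genes (edgeR, Benjamini-Hochberg), 2 had an unadjusted p under 0.05, and their sums overlapped, from 650 to 1140 CPM in TG and 872 to 1043 CPM in WT. Its part in the levels of the members was not tested. Markers of ventricular muscle summed to 96525 to 103574 CPM in the 4 libraries with more counts and to 85629 to 90758 CPM in the 4 with fewer. Fibroblast markers divided the other way, at 1272 to 1357 CPM and 1489 to 2012 CPM. Sums of the smooth muscle and pericyte list, the circadian clock genes and the skeletal muscle list also divided fully by class. In the last, Ckm was the only 1 of 8 genes to pass the filter on low counts, so its sum is not read as skeletal muscle content. The part of these lists in the levels of the members was not tested. TG replicate 2 stood apart in atrial markers, which summed to 880 CPM there and 94.0 to 284 CPM elsewhere. In the same library adipocyte markers summed to 978 CPM, against 27.2 to 68.0 CPM in the others, and its part in the levels of the members was not tested beyond leaving that library out.

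At the level of the whole set, 2 genes dominated. On the length-corrected FPKM scale Hspa8 had a mean of 1171 ± 273 and Hsp90ab1 one of 726 ± 106 (SD over all 8 libraries), and Hspa8 was above Hsp90ab1 in each library. Bag3 followed at 232 ± 18 FPKM and had the narrowest relative spread of the 10, from 208 to 269. St13 at 47.2 ± 12 and Hsp90aa1 at 42.9 ± 18.9 FPKM did not differ beyond their spread. The same held for the HSP110 genes Hspa4 (23.2 ± 5.8) and Hsph1 (20.3 ± 8.2), and for Dnaja1 (14.4 ± 5.2), Dnajb1 (11.3 ± 6.9) and Hspa1b (10.7 ± 9.9 FPKM). Thus the constitutive HSP70 and HSP90 stood far above their inducible relatives in both groups. The FPKM ratio of Hsp90ab1 to Hsp90aa1 was 16.2 to 21.4 in WT and ranged from 11.5 in TG replicate 2 to 31.8 in TG replicate 3.

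**Figure D1:**
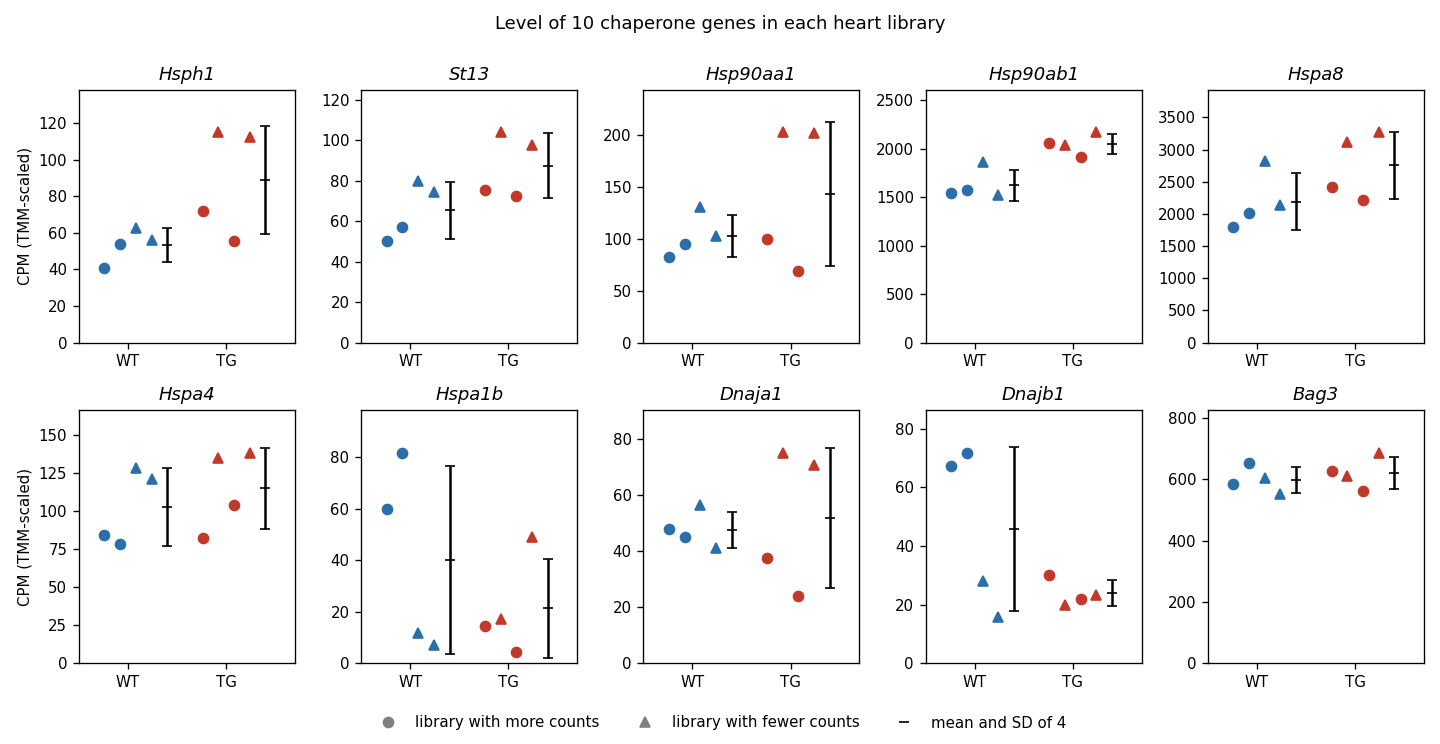
Level of each member in each library, in CPM after TMM scaling (vertical axes start at 0, with a range for each gene). Points are libraries, circles those with more counts and triangles those with fewer, and black bars give the mean and SD of 4. In Hsp90ab1 all 4 TG points lie above all 4 WT points, and in Hspa1b the highest points are WT replicates 1 and 2.

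The exchange factor Hsph1 stood at 72.0, 115, 55.6 and 112 CPM in TG replicates 1 to 4, against 40.8, 53.9, 62.7 and 56.4 CPM in WT replicates 1 to 4. TG replicates 2 and 4 were the highest libraries, while TG replicate 3 lay within the WT range, so the groups overlapped. The log2 fold change, TG relative to WT, was 0.73 (SE 0.22, edgeR fit over all genes), or 1.66-fold. Without TG replicate 2 it was 0.58, and without TG replicates 2 and 4 together 0.26, a comparison that then sets TG libraries with more counts against WT libraries of both kinds. Within the libraries with more counts the TG mean exceeded the WT mean by 0.43 on the log2 scale, and within those with fewer counts by 0.93. In both classes both TG values were above both WT values. With 2 libraries against 2 this says little, and the share of all genes that do so was not counted. The constitutive relative Hspa4 measured 82.3, 135, 104 and 139 CPM across the TG libraries, against 84.1, 78.2, 129 and 121 CPM across the WT libraries, with a log2 fold change of 0.16 (SE 0.19). In Hspa4 the 4 libraries with fewer counts were the 4 highest, whichever group they came from.

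St13, the HSP70-holding co-chaperone, measured 75.5, 104, 72.3 and 97.7 CPM across the TG libraries, against 50.2, 57.0, 80.0 and 74.4 CPM across the WT libraries. The groups overlapped, because WT replicate 3 stood above TG replicates 1 and 3. The log2 fold change was 0.42 (SE 0.17), and it was 0.46 within the libraries with more counts and 0.38 within those with fewer. It lay between 0.31 and 0.53 when any 1 library was left out, and was 0.18 without TG replicates 2 and 4.

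In the HSP90 pair the abundant gene was the steadier one. Hsp90ab1 measured 2064, 2041, 1915 and 2174 CPM across the TG libraries, against 1542, 1571, 1860 and 1520 CPM across the WT libraries, and its groups did not overlap. Its log2 fold change was 0.34 (SE 0.10), or 1.26-fold, with 0.35 and 0.33 within the libraries with more and with fewer counts. Hsp90ab1 was the 1 member of 10 whose TG values all lay above its WT values, as did those of 1.23% of all tested genes. No member had all TG values below WT, where the share over all genes was 1.29%. Hsp90aa1 measured 99.6, 203, 68.5 and 202 CPM across the TG libraries, against 82.2, 94.9, 131 and 102 CPM across the WT libraries. Its TG libraries fell into a high pair, replicates 2 and 4, and a low pair. Its log2 fold change of 0.48 (SE 0.29) was 0.27 without either library of that high pair and -0.28 without both. It was 0.81 within the libraries with fewer counts and -0.10 within those with more.

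Among the HSP70 genes, Hspa8 measured 2421, 3111, 2211 and 3275 CPM across the TG libraries, against 1797, 2015, 2821 and 2134 CPM across the WT libraries. The groups overlapped through WT replicate 3, and the log2 fold change was 0.33 (SE 0.16), with 0.28 and 0.38 within the libraries with more and with fewer counts. Hspa1b, the inducible HSP70, followed another order. It measured 14.4, 17.3, 4.59 and 49.0 CPM across the TG libraries, against 59.8, 81.9, 11.9 and 7.03 CPM across the WT libraries. The highest libraries were WT replicates 1 and 2 and TG replicate 4, and the lowest was TG replicate 3. Its log2 fold change was -0.93 (SE 0.71), and it ran from -1.75 to -0.32 when any 1 library was left out. Hspa1a is a near-identical neighbour of Hspa1b, and how reads were divided between them is uncertain. Summed over both genes the levels were 44.8, 42.7, 14.9 and 130 CPM across the TG libraries, against 144, 182, 33.1 and 19.7 CPM across the WT libraries, in nearly the same order as Hspa1b alone, which made up 30.8% to 45% of the sum.

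The J-domain gene Dnajb1 measured 30.1, 19.99, 22.1 and 23.5 CPM across the TG libraries, against 67.2, 71.9, 28.0 and 15.9 CPM across the WT libraries. As in Hspa1b, WT replicates 1 and 2 were the highest libraries, while WT replicate 3 lay within the TG range and WT replicate 4 below it. Its log2 fold change was -0.94 (SE 0.37), and it was -1.42 within the libraries with more counts and 0.04 within those with fewer. Immediate early genes were lower in TG in 20 of 23 tested cases, with a median log2 fold change of -0.35. None passed over all genes (edgeR, Benjamini-Hochberg), while 8 had an unadjusted p under 0.05, all lower in TG, as did 1.96% of all genes. These genes, which respond within minutes to a stimulus, summed to 1735 and 1734 CPM in WT replicates 1 and 2 and to between 887 and 1329 CPM in the other 6 libraries. Their part in the Hspa1b and Dnajb1 levels was not tested. Dnaja1 measured 37.4, 75.0, 23.9 and 70.6 CPM across the TG libraries, against 47.8, 44.9, 56.3 and 41.1 CPM across the WT libraries, so its TG libraries enclosed the WT range. Its log2 fold change was 0.12 (SE 0.28), -0.11 without TG replicate 2 and -0.07 without TG replicate 4, and it was also below 0 by limma on both FPKM scales. Bag3 measured 629, 612, 561 and 688 CPM across the TG libraries, against 586, 654, 604 and 553 CPM across the WT libraries, with a log2 fold change of 0.06 (SE 0.10).

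**Figure D2:**
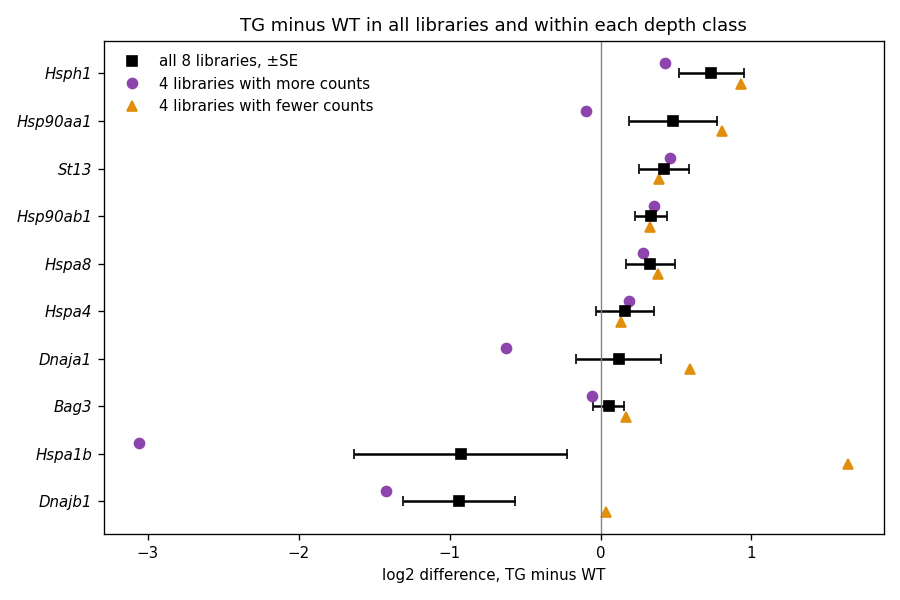
Log2 difference of TG minus WT for each member: squares with SE bars from the edgeR fit to all 8 libraries, circles and triangles from the means of 2 TG and 2 WT libraries with more or with fewer counts. Hsph1, St13, Hsp90ab1, Hspa8 and Hspa4 stay to the right of 0 in all 3 readings, and Hspa1b moves from -3.06 to 1.64.

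Of the 10 members 8 had a positive fold change, and their median was 0.24 on the log2 scale. The median of all tested genes was -0.00, which is no comparison, because this contrast chose the members. By the quasi-likelihood test of edgeR, adjusted by Benjamini-Hochberg, 2 of 12670 genes (0.0158%) were called, and none of the 10 members was among them. For the same reason nothing is read from that count or from the 8 positive signs. In bulk tissue, fewer cells of a type and less RNA per cell cannot be told apart. The median of the members was 0.15 without TG replicate 4, -0.074 without TG replicates 2 and 4, and within the libraries with more counts 0.07.

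The wider chaperone system was examined through 99 tested genes outside the members, in 8 lists. None passed the threshold in either direction by edgeR with Benjamini-Hochberg adjustment or by DESeq2, and 3 (all higher in TG) had an unadjusted p under 0.05. Over all genes 3.49% had one, 1.53% higher and 1.96% lower in TG. The median log2 fold change of the 99 was 0.05, and 63 of 99 were positive, against 6277 of 12670 over all genes. Leaving out single libraries gave 55 to 73 positive. Without TG replicates 2 and 4 it was 47 of 99, with a median of -0.009. The 3 genes were Unc45b, a myosin chaperone of striated muscle, at 332 ± 17 CPM with the transgene against 247 ± 33 without, Stip1 (HOP), which bridges HSP70 and HSP90, at 220 ± 17 and 168 ± 20, and the exchange factor Bag5 at 16.4 ± 0.4 and 13.4 ± 1.1 (means ± SD over 4 libraries, as for all lists below). Of the 99 genes these 3 alone had all TG values above all WT values, beside 1.23% of all genes. They were picked by their p in the same contrast, so this adds nothing to it. Their adjusted p values by edgeR were 0.678 for Unc45b, 0.883 for Stip1 and 0.9996 for Bag5.

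Among 19 HSP90 co-chaperones, to which Unc45b and Stip1 belong, 14 were positive and the median was 0.07. The immunophilin Fkbp4, the most abundant of them, averaged 588 ± 49 CPM with the transgene against 559 ± 84 without. Of 15 J-domain genes 13 were positive, with a median of 0.07. Dnajb5 stood at 158 ± 17 and 165 ± 10 CPM, Dnajb2 at 109 ± 12 and 97.6 ± 9.3, and Dnajb6 at 86.1 ± 4.7 and 77.6 ± 8.4, TG first. Of 11 exchange factors and regulators 7 were positive, with a median of 0.06. Hsf1, the heat shock factor itself, stood at 75.9 ± 8.1 and 69.0 ± 4.0 CPM, and Bag1 at 183 ± 9 and 184 ± 14. Of 8 other HSP70 and HSP110 genes 4 were positive, with a median of -0.06, and Hspa1l stood at 18.4 ± 3.3 and 15.8 ± 2.7 CPM, Hspa12a at 36.5 ± 3.0 and 31.8 ± 6.5 and Hspa12b at 59.9 ± 10.8 and 66.5 ± 4.2.

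The chaperonin CCT, which folds actin and tubulin, and its partner prefoldin had 9 positive genes of 14 and a median of 0.09. Its subunits Cct3 and Tcp1 stood at 95.2 ± 9.3 and 144 ± 17 CPM with the transgene, against 81.4 ± 9.4 and 127 ± 17 without, and Pfdn5 at 129 ± 10 and 133 ± 28. Of 9 mitochondrial chaperones 6 were positive, with a median of 0.07, and the chaperonin pair Hspd1 and Hspe1 stood at 213 ± 47 and 145 ± 30 CPM with the transgene, against 179 ± 32 and 127 ± 26 without. Small heat shock proteins, which hold unfolded proteins without ATP, had 3 positive genes of 7 and a median of -0.03. Cryab stood at 3407 ± 155 and 3024 ± 569 CPM, Hspb1 at 594 ± 91 and 467 ± 109 and Hspb6 at 2719 ± 144 and 3254 ± 557. Chaperones of the endoplasmic reticulum had 7 positive genes of 16 and a median of -0.01, with the collagen chaperone Serpinh1 at 624 ± 67 and 555 ± 102 CPM, Dnajb11 at 46.0 ± 3.0 and 40.5 ± 5.3 and Sdf2l1 at 7.67 ± 1.37 and 9.17 ± 1.72. Of 16 known heat-inducible genes outside the members, drawn partly from these lists, 12 were positive, with a median of 0.17, and none passed.

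**Figure D3:**
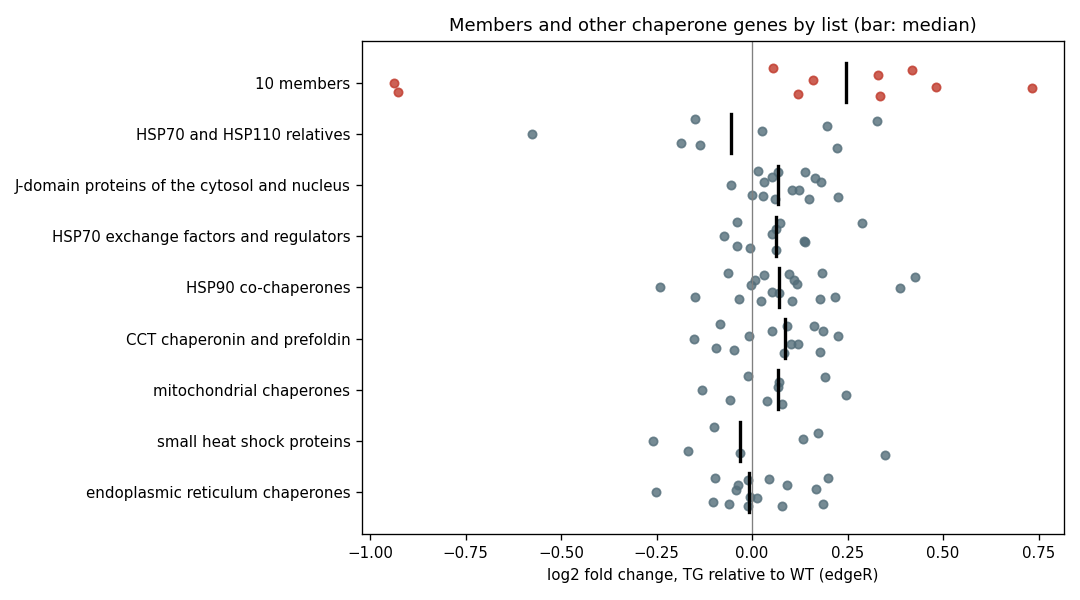
Log2 fold change of TG relative to WT (edgeR) for the 10 members and for the tested genes of 8 chaperone lists, 1 point a gene, with a bar at each median. The medians of the 8 lists lie between -0.06 and 0.09; the members were chosen by this contrast, so their place at 0.24 beside the lists is no comparison, and their median is -0.074 without TG replicates 2 and 4.

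Which members moved together was asked after the mean of each group had been subtracted, so that the difference between TG and WT did not enter. Hsph1 followed Hsp90aa1 most closely, with Pearson r = 0.98 and Spearman rho = 0.98 over the 8 libraries (exact two-sided permutation within groups, p = 0.00174 and 0.00347, adjusted over 9 pairs 0.0078 and 0.023). Here 0.00174 is the smallest p that 576 arrangements can give. The arrangements treat the libraries of a group as interchangeable, although 32.2% of all tested genes differed between the count classes. A shift shared by class therefore enters these p-values. St13 had r = 0.87 and rho = 0.86 with Hsph1 (exact permutation p = 0.00174 and 0.0052, adjusted 0.0078 and 0.023), and Hspa8 had r = 0.90 and rho = 0.90 (exact permutation p = 0.0104 and 0.0139, adjusted 0.031 and 0.042). Dnaja1 had r = 0.89 and rho = 0.83 and did not pass (exact permutation, adjusted p = 0.094 and 0.208). Hspa4 (0.70), Hsp90ab1 (0.58), Bag3 (0.52), Hspa1b (0.25) and Dnajb1 (-0.34) did not pass either, with adjusted exact permutation p between 0.154 and 0.554 for r. Of the 9 members 4 reached an r of 0.8 with Hsph1, as did 5.19% of all other tested genes. Hsp90aa1 ranked 4 among those 12669 genes.

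The relations depended partly on the division between libraries with more and with fewer counts. Without TG replicates 2 and 4, the libraries farthest from the median of Hsph1, r was 0.93 for Hsp90aa1, 0.82 for St13, 0.83 for Hspa8 and 0.52 for Dnaja1, and no pair passed (exact permutation over 48 arrangements, smallest adjusted p = 0.188). No r is given within a count class, which holds 4 libraries. With the count class also subtracted, r with Hsph1 was still 0.93 for Hsp90aa1 and 0.81 for Dnaja1, but 0.62 for Hspa8, 0.40 for St13 and -0.66 for Hspa4. In that reading Bag3, Hspa1b and Dnajb1 had r of 0.86, 0.80 and 0.80. It allows 16 arrangements and an exact permutation p of at least 0.0625, so no pair could pass. The 3 pairs were not called in every setting that left out 1 library: without WT replicate 1, 3 or 4 none was, at adjusted exact permutation p of 0.0625 or more, while r of Hsph1 with Hsp90aa1, St13 and Hspa8 stayed between 0.84 and 0.997 when any 1 library was left out.

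**Figure D4:**
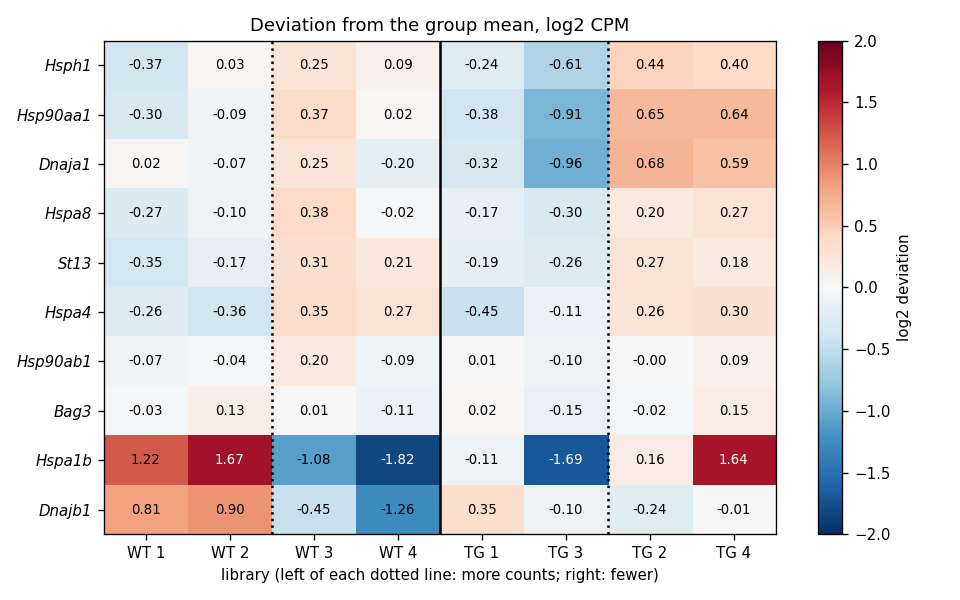
Deviation of each member from its group's mean in each library, as log2 CPM (colour and printed value, rows are genes, columns libraries). Dotted lines divide each group into libraries with more counts at the left and fewer at the right. Hsph1, Hsp90aa1 and Dnaja1 share their highest values in TG replicates 2 and 4, while Hspa1b and Dnajb1 are highest in WT replicates 1 and 2, apart from Hspa1b in TG replicate 4.

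The count classes were then compared directly, with the group in the same edgeR fit. Summed markers of ventricular muscle and of fibroblasts also divide by class, and their part in these differences was not tested. Of the 10 members 7 differed between the classes, where 32.2% of all genes did: Hsph1, St13, Hsp90aa1, Hspa8, Hspa4 and Dnaja1 were lower and Dnajb1 was higher in the libraries with more counts. The log2 difference, more minus fewer counts, was -0.84 for Hsp90aa1 (SE 0.17, adjusted p = 0.0035), -0.59 for Hsph1 (SE 0.12, adjusted p = 0.0044), -0.59 for Hspa4 (SE 0.08, adjusted p = 6.0e-04) and 1.01 for Dnajb1 (SE 0.25, adjusted p = 0.010), all by edgeR with Benjamini-Hochberg adjustment. Hsp90ab1 at -0.10 (adjusted p = 0.305), Bag3 at -0.01 (0.913) and Hspa1b at 0.61 (SE 0.75, adjusted p = 0.556) did not pass. Of the 99 other chaperone genes 40 passed, 31 of them lower in the libraries with more counts, where 2256 of the 4078 genes called over the whole table were lower (17.8% of all tested). Among the 20 of them with the smallest p, the 6 most negative differences were those of the J-domain gene Dnajb4 (-0.94), Dnajc3 of the endoplasmic reticulum (-0.91), the HSP90 co-chaperone Chordc1 (-0.90), the HSP110 gene Hspa4l (-0.89), Hspa13 (-0.88) and Hsp90b1, the HSP90 of the endoplasmic reticulum (-0.88). Without TG replicate 2 the members called were 6 of 10, and Dnaja1 was no longer among them, beside 28.1% of all genes. 

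The genes whose levels within groups were most like those of Hsph1 were taken from 7268 genes with a mean of at least 5 FPKM, by r over the 8 libraries, as a description. Outside the members these were Txndc9 (0.97), Cd24a (0.97), Rars (0.97), Ctla2a (0.96), Ptges3 (0.96), Ndufaf4 (0.95), Med19 (0.95) and Nmd3 (0.95). Ptges3 (p23) is an HSP90 co-chaperone, Txndc9 a regulator of the CCT chaperonin and Rars a cytosolic arginyl-tRNA synthetase. The genes most opposite were Khsrp (-0.99), Ints1 (-0.98), Rbck1 (-0.98) and Ppm1j (-0.98). Of the 99 other chaperone genes 19, or 19.2%, had an r of at least 0.8 with Hsph1, beside the 5.19% over all genes, and their median r was 0.50. They included the HSP90 co-chaperones Chordc1 (0.91) and Cacybp (0.92), the HSP110 gene Hspa4l (0.86) and the mitochondrial Hspd1 (0.88). The 8 libraries share the same division by total counts in all of these values.

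**Figure D5:**
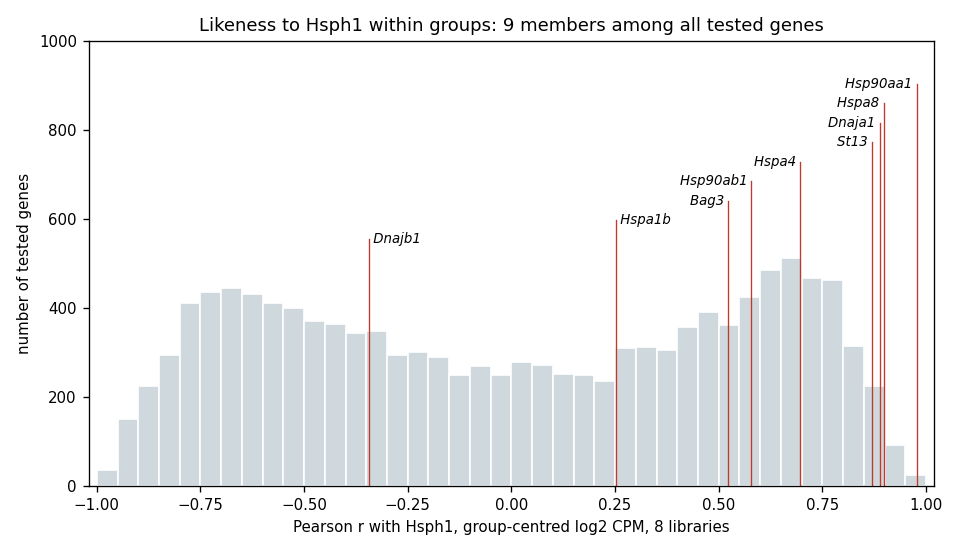
Number of tested genes by their Pearson r with Hsph1 after centring log2 CPM on the group means (8 libraries), with a line for each of the 9 other members. Hsp90aa1, Hspa8, Dnaja1 and St13 stand above 0.8, where 5.19% of genes lie, and Dnajb1 stands at -0.34.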

How the data were processed

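Per the file headers, each table pairs a gene number with its length, its FPKM and its expected count. The expected counts are the authors' estimates and are not normalized, and FPKM was also computed and deposited by the authors. The submitters' processing notes name Bowtie2 and mm8. The counting program and its use of strand are not given in the sources used here. Genes that a table does not list were taken as 0. Expected counts were rounded and filtered with filterByExpr (minimum count 10, total 15), then fitted with edgeR 4.0.16 in R 4.3.3 (TMM, quasi-likelihood F-test, group alone, Benjamini-Hochberg, threshold 0.05, two-sided). SE came from the log2 fold change and the root of its F statistic. Log2 CPM used a prior count of 2. A count of 3 equals 0.380 to 0.479 CPM, for counting error only. Libraries were divided into 2 count classes at the widest gap in total counts (6975882). No pair of libraries in a group agreed within sampling noise (smallest chi-square per degree of freedom 4.45).

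Symbols and start regions came from RefSeq GRCm38.p6, for 18174 of 18215 genes. The members and lists were chosen with earlier results of these data known. Named beside the members were, in each list, the most abundant gene and the 2 with the smallest unadjusted p, and the 8 and 4 genes most and least like Hsph1. Genes named for their difference between count classes, for r in the chaperone lists, and Hspa1a were chosen after their values were seen, as were the count class test, its interaction with group and the comparison of all 45 pairs. Alternatives were DESeq2 1.42.0 and its size factors, other filters, limma 3.58.1 on log2(FPKM + 1) and log2(FPKM + 0.1), each library left out, a replicate block, the count class as covariate and Carns1 left out. Scripts were tested on simulated data.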

Additional observations from a re-analysis of the deposited data

Results flagged for a closer look

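Hsp90ab1 in WT replicate 3 stood at 1860 CPM, far from the other WT libraries at 1520 to 1571 CPM and closer to the lowest TG library at 1915 CPM. Its gap to the nearest of them took up 0.851 of the group's range, above the limit that Dixon's test sets for 4 samples. Chance flags about 1 in 20 groups, and 20 groups were looked at. Without that library the log2 fold change of Hsp90ab1 was 0.41.

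Hspa1b and Dnaja1 differed in opposite directions in the libraries with more and with fewer counts. In the libraries with more counts both TG values of each gene lay below both WT values, at log2 differences of -3.06 for Hspa1b and -0.62 for Dnaja1. In those with fewer counts both lay above, as in every other member but Dnajb1, at 1.64 and 0.59. The difference of these differences was -4.70 for Hspa1b (SE 0.66, edgeR interaction term, Benjamini-Hochberg adjusted p = 0.110) and -1.17 for Dnaja1 (SE 0.27, adjusted p = 0.321), so neither passed over all genes. No gene of 12670 passed in that interaction test by edgeR, while 625 had an unadjusted p under 0.05, 5 of them members. These were Hspa1b, Dnaja1, Dnajb1 (-1.40), Hsp90aa1 (-0.87) and Hsph1 (-0.50). Hsp90aa1, Dnajb1 and Bag3 also had opposite signs in the 2 classes, but their groups overlapped in 1 class. Hspa1b had the smallest adjusted p of all genes. Full separation of 2 TG from 2 WT libraries comes easily by chance, and its share over all genes was not counted. With 2 libraries in each cell, 1 library decides much of the values above. In TG replicate 4 Hspa1b stood at 49.0 CPM and in TG replicate 2 at 17.3.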

How the results depend on the processing

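The number of genes called between TG and WT, 2 by edgeR, was 15 with DESeq2, 4 with no filter on low counts, 1 with limma on either FPKM scale, 1 with the replicate number as a block, 28 with the count class as a covariate and 0 with the Carns1 reads left out. Leaving out 1 library at a time gave 1 to 3. Members were among the genes called only with the count class as a covariate, where Hsph1 and St13 were. As this contrast chose the members, nothing is read from that. The number of other chaperone genes called was 0 in all 18 settings. The median of the members, 0.24, ran from 0.15 to 0.36 on leaving out single libraries and was -0.074 without TG replicates 2 and 4, a setting chosen after the data were seen. Hsph1, St13, Hsp90aa1, Hsp90ab1, Hspa8, Hspa4 and Bag3 kept a positive fold change in every setting that used all 8 libraries or left out 1. The lowest log2 values of Hspa4 and Bag3 there were 0.05 and 0.004. Hspa1b and Dnajb1 stayed negative in the same settings, and the sign of Dnaja1 changed with the setting. The number of the 9 pairs with Hsph1 that passed, 3, was 0 to 3 when 1 library was left out. It was 0 without the 2 libraries farthest from the median of Hsph1 (48 arrangements), 0 when centred on count class as well (16) and 0 with the replicate block (24), where few arrangements limit the p. It was 3 with DESeq2 size factors, with log2(FPKM + 1) and without the Carns1 reads. Over all 45 pairs of members 2 passed by Pearson r, Hsph1 with St13 and with Hsp90aa1 (exact permutation, adjusted p = 0.039 for both). By Spearman rho no pair passed, and both of these stood at an adjusted exact permutation p of 0.078. A shift shared by count class enters these p-values too. The replicate numbers did not pair the libraries: deviations of same-numbered libraries correlated at 0.24, -0.28, -0.18 and 0.40. Hspa1b in TG replicate 3, at 33 counts, is the least precise member value.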

Other observations

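The cold-inducible RNA-binding protein genes Cirbp and Rbm3, known to fall when temperature rises and heat shock genes respond, averaged 29.2 ± 5.3 and 41.8 ± 6.0 CPM with the transgene, against 28.6 ± 11.5 and 48.3 ± 11.6 CPM without it (SD over 4 libraries). Neither passed over all genes (edgeR, Benjamini-Hochberg adjusted p = 0.9996 for both). After centring on the group means, r with Hsph1 was -0.67 for Cirbp and -0.61 for Rbm3. With Hspa1b it was 0.37 and -0.14. These r values were not tested, and the share of all genes with an r as low was not counted. The division by total counts enters them too, so nothing about temperature is read from them.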
